A study of Mus musculus with 16 samples.

Results

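Genes for the presentation of antigen on major histocompatibility complex (MHC) class II were followed in terminal ileum of mice with and without Bcl6 in hepatocytes. The 10 genes were chosen by symbol from the 24940 genes of the count table: Cd74, Ciita, H2-Aa, H2-Ab1, H2-Eb1, H2-DMa, H2-DMb1, H2-DMb2, Ifi30 and Ctss. All 10 were found, and all 10 had enough counts to be tested in every comparison. The samples were ileum of 16 C57BL/6 mice in 4 groups of 4. WT mice were Bcl6 fl/fl, with loxP sites around Bcl6 in every cell and no Cre recombinase, and LKO mice were Bcl6 fl/fl with Alb-cre, a Cre driven by the albumin promoter that is active in hepatocytes. Males and females of each genotype made up the groups, and no treatment and no age is given in the sources used here. The questions were how the class II genes of the ileum compare between the genotypes in each sex, and between the sexes in each genotype.

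Class II molecules are pairs of an alpha and a beta chain that carry peptides from endosomes to the cell surface, where CD4+ T cells read them. The invariant chain, Cd74, holds the empty groove until it is cut by proteases such as cathepsin S (Ctss), and H2-DM, a pair of H2-DMa with H2-DMb1 or H2-DMb2, exchanges the last fragment for a peptide. The coactivator Ciita binds the factors that sit on the X and Y boxes of these promoters and is the limiting regulator of most of the genes, and interferon-gamma induces it. In the intestine, dendritic cells, macrophages and B cells carry class II, and enterocytes of the small intestine carry it too. In a piece of whole ileum, a lower level in each cell and fewer cells of a kind cannot be told apart.

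Depth was even, at 15.7 to 20.5 M reads counted in genes, save for female LKO replicate 1 with 60.3 M. Bcl6 itself was present in the ileum of all 4 groups, at 9.25 to 17.8 CPM (counts per M reads) in WT and 15.2 to 26.1 CPM in LKO. Alb-cre acts in the liver, so the ileal level does not check the deletion. Enterocyte markers such as Vil1 and Epcam summed to between 9213 and 13201 CPM, and the ileal genes Fabp6, Slc10a2, Slc51a, Slc51b and Cubn summed to between 4184 and 7900.5 CPM, so both sets of defining markers were present in every library. Markers of B cells were uneven between libraries, from 21.3 to 445 CPM in sum. Male LKO replicate 3 stood apart from its group for the class II genes, and also over all genes. Values without these libraries are given beside the results they move.

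Of the 10 genes, 6 lie on chromosome 17 (mm10) within 193843 bases, from the start of H2-DMa at 34122832 to the end of H2-Eb1 at 34316674. Between them, in this order, are H2-DMb2 (chr17:34145416-34151095), H2-DMb1 (chr17:34153191-34160229), H2-Ab1 (chr17:34263227-34269418) and H2-Aa (chr17:34282751-34287771, minus strand). Ciita lies on chromosome 16 (10489781 to 10527640), Ctss on chromosome 3 (95526786 to 95556405) and Ifi30 on chromosome 8 (70762773 to 70766663, minus strand), while Cd74 is on a further chromosome. These are whole gene intervals, and the counts cover their exons, untranslated parts included. H2-DMb2 ends 2095 bases before H2-DMb1 begins, and the pair are close copies: 13.7% of the 100-base stretches in the H2-DMb1 transcript occur unchanged in H2-DMb2. Reads from such stretches have 2 positions and were dropped by the alignment, so the counts of both genes are lower limits. No 100-base stretch was shared between any other pair of the 9 members with a matched transcript, a set that leaves out Ifi30.

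Promoters are shown as a description, and the part of their letters in the level of any gene was not tested. RefSeq windows (GRCm38.p6, 250 bases before to 50 after a start) were found for 7 members: H2-DMa, H2-DMb1, H2-DMb2, H2-Aa, H2-Eb1, Ifi30 and Ctss. Each line gives 120 bases, 5′ to 3′ on the strand of the gene, and capitals mark the Y box and X box letters searched for on either strand (2 overlapping matches run together in H2-DMb1).
H2-Eb1: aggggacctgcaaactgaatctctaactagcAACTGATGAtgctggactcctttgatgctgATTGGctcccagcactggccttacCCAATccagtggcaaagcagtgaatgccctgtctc
H2-DMb1: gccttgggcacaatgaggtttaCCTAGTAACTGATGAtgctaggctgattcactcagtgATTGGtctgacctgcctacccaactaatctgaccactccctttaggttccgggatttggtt
H2-DMb2: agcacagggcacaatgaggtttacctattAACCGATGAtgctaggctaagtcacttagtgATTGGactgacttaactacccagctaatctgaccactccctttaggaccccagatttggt
H2-Aa: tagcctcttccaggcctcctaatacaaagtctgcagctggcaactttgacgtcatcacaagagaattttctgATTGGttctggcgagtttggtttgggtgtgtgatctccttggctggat
Ctss: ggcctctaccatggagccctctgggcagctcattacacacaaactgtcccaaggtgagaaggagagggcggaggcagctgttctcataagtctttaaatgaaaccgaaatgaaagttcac
Ifi30: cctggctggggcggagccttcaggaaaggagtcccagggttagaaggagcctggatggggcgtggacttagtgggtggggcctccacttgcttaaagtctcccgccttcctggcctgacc

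These stretches are chr17:34305747-34305866 (plus strand), chr17:34153071-34153190 (plus), chr17:34145099-34145218 (plus), chr17:34287824-34287943 (minus), chr3:95526666-95526785 (plus) and chr8:70766664-70766783 (minus). They end 1 base before the start of the window's transcript, except for H2-DMb2, where the stretch ends 31 bases before it. The counted transcript of H2-DMb2 begins 167 bases, and that of H2-Aa 52 bases, downstream of the RefSeq start. The Y box letters ATTGG, read on both strands, were in the windows of H2-Eb1, H2-DMb1, H2-DMb2, H2-Aa and 1 of the H2-DMa windows, and in 37.4% of all 32851 windows. H2-Eb1 had them once on each strand. An X box core written as CCNAGNNAC was in 17.3% of all windows, and an X core with a Y box 15 to 30 bases after it was in 0.304% of all windows and, among members, in H2-DMb1 only. The letters AACNGATGA, which overlap the X core in H2-DMb1, were chosen after these promoters had been read. They were in H2-Eb1, H2-DMb1 and H2-DMb2, each with a Y box 15 to 30 bases after them, an arrangement present in 5 of all windows, and since these promoters gave the letters the match is a description of them. Neither Ctss nor Ifi30 had any of the searched letters in its window, and H2-DMb2 had the same arrangement as H2-DMb1. The H2-DMa window at the start of the counted transcript had no match. The other H2-DMa window, farther downstream, had a Y box 198 bases before its start. No window is shown for Cd74, Ciita and H2-Ab1.

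Per kilobase of transcript, Cd74 was the most abundant member and H2-DMb2 the least. Mean levels over the 16 libraries, as CPM per kilobase of transcript (RPKM), were 1899.7 for Cd74, 965 for H2-Aa, 715 for H2-Ab1 and 368 for H2-Eb1. Ctss followed at 177 RPKM and Ifi30, a thiol reductase that opens disulfide bonds of antigens, at 110.1 RPKM. H2-DMb1 had 87.4 RPKM, H2-DMa 66.6 RPKM, Ciita 11.7 RPKM and H2-DMb2 4.97 RPKM. The invariant chain thus exceeded each class II chain. H2-Aa was between 1.10 and 1.46 times H2-Ab1 per kilobase in the 16 libraries, and Cd74 was between 2.46 and 2.97 times H2-Ab1. H2-Ea-ps, the alpha partner of H2-Eb1, which C57BL/6 mice (haplotype b) do not express, was at or below 0.0561 CPM in every library.

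The members differed in how much they varied. Ifi30 and Ctss spanned only a 1.25-fold and a 1.26-fold range over the 16 libraries, H2-DMa spanned 2.65-fold, Cd74 2.74-fold, H2-Eb1 2.80-fold, H2-Ab1 2.98-fold, H2-DMb1 3.02-fold, Ciita 3.25-fold and H2-Aa 3.50-fold. H2-DMb2 spanned 13.6-fold. Cd74, the 3 classical chains, H2-DMa and H2-DMb1 moved together across libraries, with Pearson correlations of log2 CPM between 0.939 and 0.995 for every pair of the 6. Ciita followed them with r between 0.751 and 0.782, Ctss with r between 0.531 and 0.688, and Ifi30 with r between -0.302 and -0.20. These correlations are descriptions over 16 libraries that share sex, genotype and the low values of male LKO replicate 3.

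**Figure D1:**
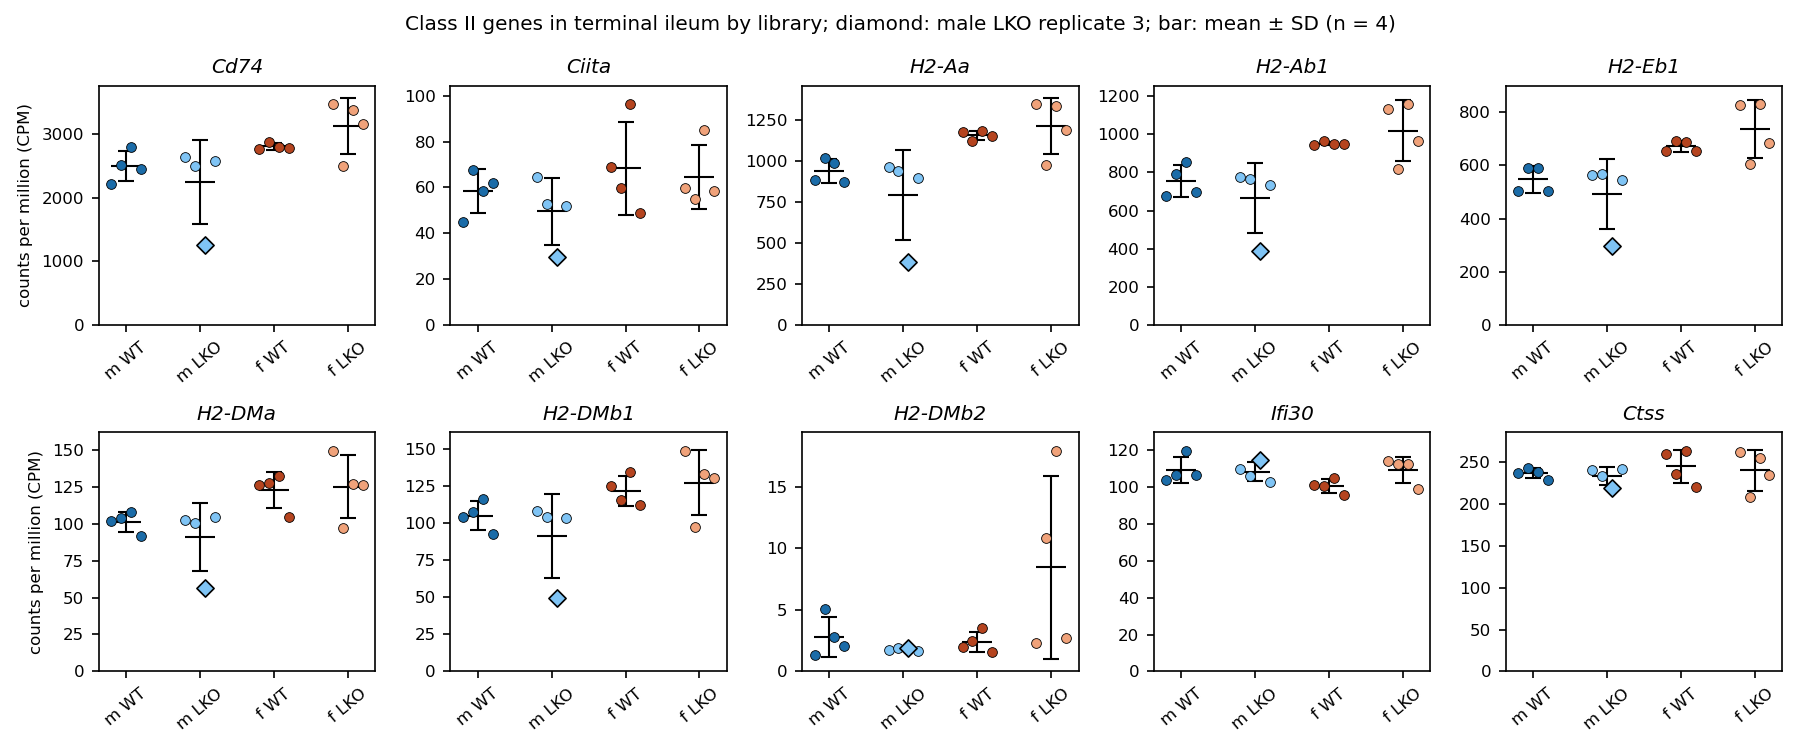
CPM of the 10 genes in the 16 libraries, with 1 panel per gene, 4 points per group (m, male; f, female), the diamond for male LKO replicate 3, and bars at the mean ± SD. The diamond lies below all other libraries for Cd74, Ciita, the H2-A and H2-E chains, H2-DMa and H2-DMb1, but close to its group for H2-DMb2, Ifi30 and Ctss.

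In males, none of the 10 genes passed the threshold for a difference between the genotypes. Cd74 was at 2222, 2508, 2791 and 2456 CPM in male WT and at 2647, 2495, 1264 and 2573 CPM in male LKO. The male LKO values lay within the male WT range except for replicate 3, which was below it. H2-Ab1 was at 677, 791, 855 and 697 CPM in male WT and 774, 767, 388 and 734 CPM in male LKO, again with only replicate 3 below the WT range. Ciita was at 45.04, 67.6, 58.4 and 62.0 CPM in male WT and 64.7, 52.7, 29.6 and 51.7 CPM in male LKO. Of the 10 genes, 0 passed an adjusted p of 0.05, also with DESeq2, and 0 had an unadjusted p below 0.05. In the background, 0.0527% of 15169 genes passed (0.415% with DESeq2) and 5.29% had an unadjusted p below 0.05. No member had all male LKO below or above all male WT, a separation that 2.87% of genes showed (1.25% with male LKO below). All 10 log2 fold changes (LKO minus WT) were below 0, from -0.60 ± 0.34 (SE) for H2-DMb2 to -0.01 ± 0.06 for Ifi30, with a median of -0.17 against -0.002 over all genes tested. Without male LKO replicate 3 the median was 0.01 and 6 of the 10 were above 0. Cd74 then moved from -0.15 ± 0.23 to 0.05 ± 0.08 and H2-Ab1 from -0.18 ± 0.22 to 0.01 ± 0.08.

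In females, too, no member passed the threshold for a difference between the genotypes. Cd74 was at 2768, 2875, 2799 and 2780.5 CPM in female WT and at 3468, 2495, 3373 and 3161 CPM in female LKO. The female WT animals lay close together, while those of female LKO lay on both sides of them. H2-Ab1 showed this most, with an SD of 8.92 CPM around a mean of 951 CPM in female WT (n = 4) and an SD of 158 CPM around 1019.7 CPM in female LKO (n = 4). Ciita was at 68.8, 59.6, 96.2 and 48.9 CPM in female WT and at 59.6, 55.0, 85.0 and 58.65 CPM in female LKO. Of the 10 genes, 0 passed the adjusted threshold with edgeR or DESeq2 and 0 had an unadjusted p below 0.05, where 0.0392% of 15298 genes passed (1.01% with DESeq2) and 11.7% had an unadjusted p below 0.05. Leaving out 1 library moved the unadjusted count: it was 5 (Cd74, H2-Aa, H2-Ab1, H2-Eb1 and H2-DMb1, all above 0) without female LKO replicate 2, with 0.26 ± 0.07 for Cd74 (adjusted p = 0.389) and a median of 0.17 over the members. Dropping replicate 4 of female LKO gave 2, and dropping replicate 1 of that group or replicate 3 of female WT gave 1. Without the 4 libraries highest in B cell markers it was 2 (Cd74 and H2-DMb1), with a median of 0.17 and 10 of 10 above 0, and no member passed the adjusted threshold in any of these fits. No member was without overlap, where 6.30% of genes were and 3.67% had all female LKO below all female WT. The median log2 fold change was 0.09 (0.01 over all genes), and 8 of 10 were above 0. The largest was H2-DMb2, at 1.78 ± 0.77 (adjusted p = 0.434), which is taken up with the B cell markers. Cd74 was at 0.16 ± 0.09, H2-Eb1 at 0.14 ± 0.09 and Ifi30 at 0.13 ± 0.06.

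With both sexes in 1 fit, 0 of 10 genes were called for genotype, where 0.269% of 15598 genes were (42 genes; 1.44% with DESeq2, which called 0 members). Fold changes were small for 9 members: they ran from -0.15 ± 0.17 on the log2 scale for Ciita to 0.06 ± 0.04 for Ifi30, with 0.00 ± 0.13 for Cd74. At an unadjusted p below 0.05, 0 members and 11.2% of genes passed. H2-DMb2 was at 0.70 ± 0.55. The direction turned with the fit: 3 of the 10 were above 0, with a median of -0.03, against 8 with a median of 0.04 with the title number as covariate, and 10 with a median of 0.17 with sets of neighbouring title numbers as a factor. Without male LKO replicate 3, 8 were above 0, with a median of 0.05. The set of title numbers with male WT replicates 1 to 3 and female WT replicate 3 held WT only. Those with male LKO replicates 2 to 4 held LKO only. The part of these sets cannot be told apart from genotype. The genotype effect was not shown to differ between the sexes for any member. The interaction called 0 of 15598 genes (0%) with either tool, and 879 genes (5.64%) had an unadjusted p below 0.05, among them 1 member, H2-DMb2, at -2.38 ± 0.91 (male effect minus female effect; unadjusted p = 0.0207, adjusted p = 0.845). The members' median in the interaction was -0.28, and -0.09 without male LKO replicate 3.

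**Figure D2:**
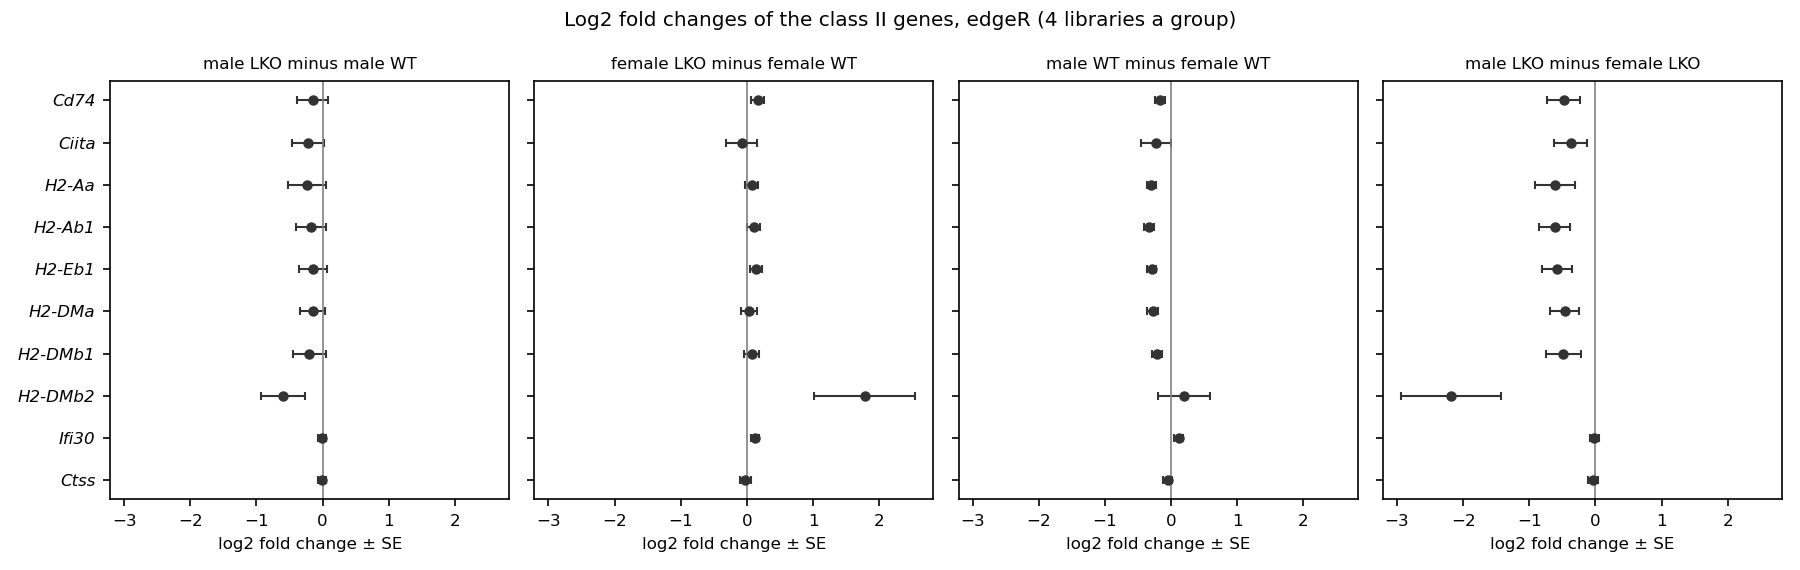
Log2 fold changes ± SE of the 10 genes from edgeR in 4 comparisons, with 4 libraries in each group. The male genotype panel holds values below 0 for all 10 genes and the female one holds 8 above 0, the sex panels hold values below 0 for the classical chains, and H2-DMb2 has the widest error bars in each panel.

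Male LKO replicate 3 held the lowest level of 7 members among all 16 libraries. Relative to the mean of the other 3 male LKO animals, H2-Aa was at 0.412, H2-DMb1 at 0.468, Cd74 at 0.492, H2-Ab1 at 0.512, Ciita at 0.525, H2-Eb1 at 0.529 and H2-DMa at 0.549. Ctss, at 0.917, Ifi30, at 1.08, and H2-DMb2, at 1.09, were not low. The other 15 libraries had between 0 and 3 members below 0.75 of the mean of their group's other animals. H2-Aa was the most reduced classical chain, and the ratio of H2-Aa to H2-Ab1 in this animal, 1.10, was the lowest of the 16.

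Markers of other cell types in this library differed in how near they lay to the other male LKO animals. Its 7 dendritic cell markers were at 0.792 to 1.20 of the other male LKO animals, with a median of 0.960, its 8 macrophage markers at 0.811 to 1.03 and its 7 enterocyte markers at 0.888 to 1.05. The 4 measured T cell markers were at 0.838 to 1.05 and the 6 measured B cell markers at 0.664 to 1.48. The 4 measured plasma cell markers were at 0.701 to 0.962, and the 3 measured genes of the follicle-associated epithelium had a median of 0.773. Of 8 other genes linked to class II, 3 were below 0.75: H2-Eb2 (0.655), Cd83 (0.693) and Lag3 (0.740). The median of the 8 was 0.804, with H2-Oa at 1.02 and H2-Ob at 0.760. Not all of these are class II chains, as the list also holds Cd83, March1, March8, Lag3 and Cd4. The 11 measured genes of class II transcription other than Ciita, among them Rfx5 (0.977), Rfxap (0.970) and Rfxank (1.08), which form the complex on the X box, ran from 0.900 to 1.11. Of 20 genes of the interferon-gamma response, 3 were below 0.75: Ubd (0.408), a ubiquitin-like protein induced by interferon, Ido1 (0.534), which breaks down tryptophan, and the guanylate-binding protein Gbp6 (0.647). Their median was 0.984, and Irf1 was at 0.870 and Cxcl9 at 1.10. Cd274, the ligand PD-L1, was at 0.521, Jchain at 0.701 and Spib at 0.643. Class I genes ran from 0.787 for Psmb8 to 1.21 for Calr. Among the higher genes were Lgmn, an endosomal protease, at 1.43, and the bile acid transporter Slc10a2 at 1.48. The genes named here were picked after their values were seen. The ratios describe 1 animal and carry no test, and the part of any of these genes in the low class II values was not tested.

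**Figure D3:**
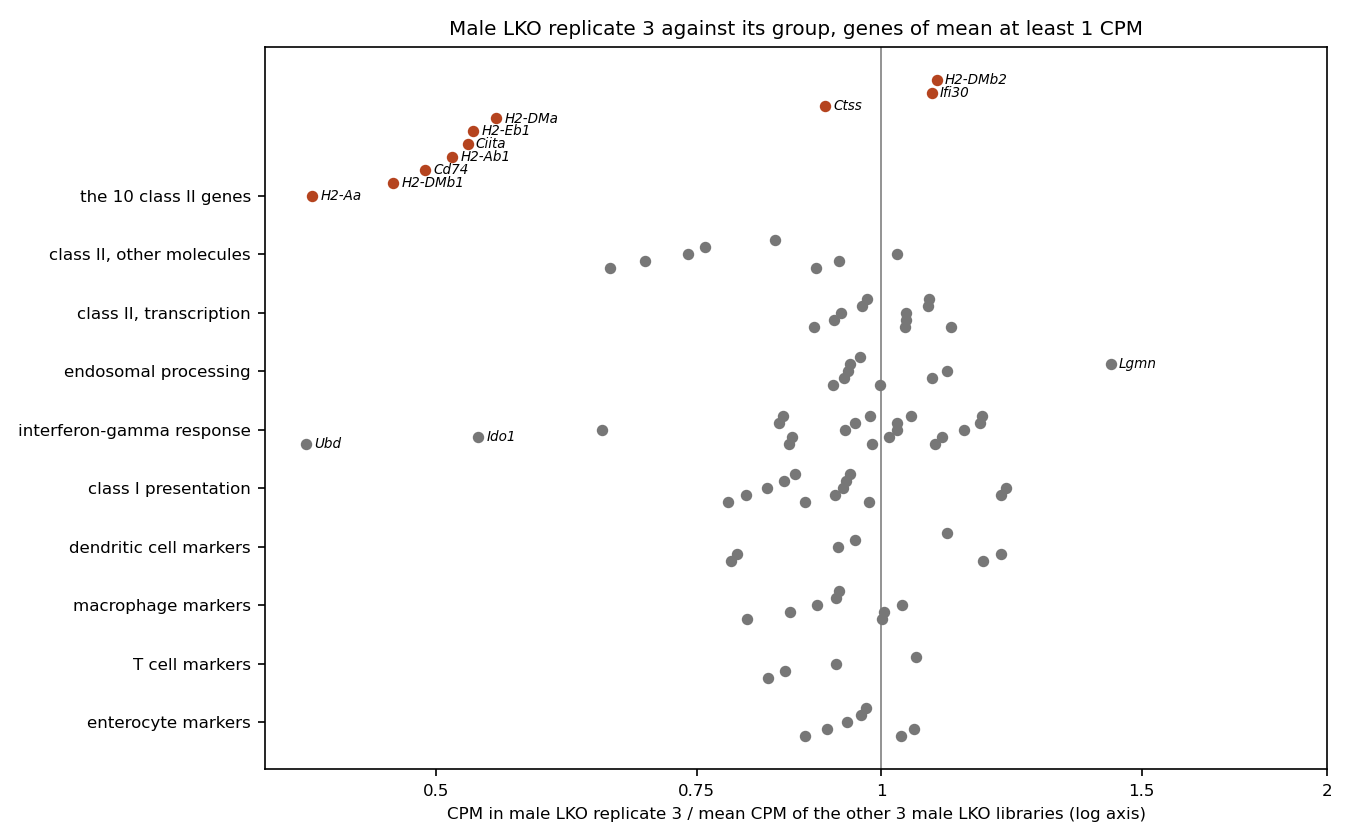
Ratio of CPM in male LKO replicate 3 to the mean of the other 3 male LKO libraries (log axis), for genes with a mean of at least 1 CPM there, by gene list. Of the 10 class II genes (upper rows) 7 lie between 0.412 and 0.549, while macrophage and enterocyte markers lie near 1.

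H2-DMb2 was high in the libraries rich in B cell markers, unlike its neighbour H2-DMb1. It was at 1.32, 5.08, 2.76 and 2.03 CPM in male WT, at 1.77, 1.90, 1.94 and 1.66 CPM in male LKO, at 2.01, 2.499, 3.51 and 1.59 CPM in female WT and at 2.33, 10.9, 17.9 and 2.75 CPM in female LKO. The high values belonged to male WT replicate 2, female WT replicate 3 and female LKO replicates 2 and 3, which were also the 4 libraries highest in B cell markers. The 10 markers, Ms4a1 (CD20) and Cr2 among them, summed to 139, 84.5, 236 and 445 CPM there and to between 21.3 and 35.6 CPM in the other 12 libraries. H2-DMb2 was between 3.51 and 17.9 CPM in the 4 and between 1.32 and 2.76 CPM in the 12, a ratio of means of 4.56, with no overlap. H2-Oa and H2-Ob, the pair that restrains H2-DM in B cells, were 5.38 and 8.76 times higher in the 4, and the class II gene H2-Eb2 was 7.73 times higher, each without overlap. The 4 libraries were set apart after seeing these values, so the ratios are descriptions.

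The other members differed less than H2-DMb2 between these sets of libraries. The 12 held 7 males, male LKO replicate 3 among them, and 5 females, so sex was uneven between the sets. The ratio of means was 1.38 for Ciita, between 1.06 and 1.15 for Cd74, the 3 classical chains, H2-DMa and H2-DMb1, 1.03 for Ifi30 and 1.02 for Ctss, and each overlapped. H2-DMb1 was at 97.2 to 135 CPM in the 4 and at 49.3 to 149 CPM in the 12. Without the 4 libraries the log2 fold change of H2-DMb2 between the female genotypes fell from 1.78 ± 0.77 to 0.30 ± 0.25, its interaction was -0.47 ± 0.38 in place of -2.38 ± 0.91, and its sex difference in LKO was -0.47 ± 0.23 in place of -2.18 ± 0.75. In male LKO, replicate 3 included, the B cell markers summed to between 26.8 and 30.2 CPM.

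**Figure D4:**
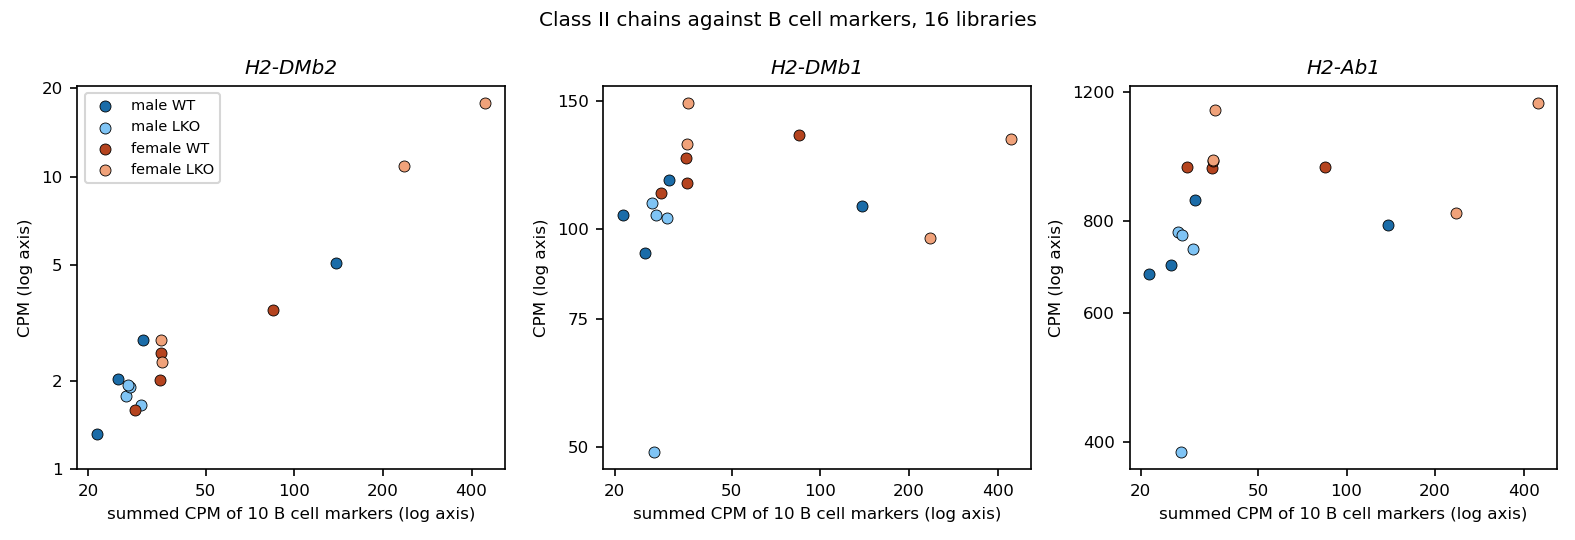
CPM of H2-DMb2, H2-DMb1 and H2-Ab1 (log axes) against the summed CPM of 10 B cell markers (log axis) in the 16 libraries, coloured by group. H2-DMb2 reaches 3.51 to 17.9 CPM in the 4 libraries above 80 CPM of B cell markers, and H2-DMb1 and H2-Ab1 overlap between the 4 and the other 12 libraries.

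Between the sexes, no member was called with edgeR within either genotype, and the fitted values of the classical chains were below 0 (male minus female) in both. H2-Aa was at 884, 1017, 987 and 869.6 CPM in male WT and at 1174, 1120.3, 1180.1 and 1149 CPM in female WT, and every male lay below every female. H2-Eb1 was at 505, 590.1, 592 and 503 CPM in male WT and at 653, 691, 689 and 653 CPM in female WT, also without overlap. H2-Ab1, given above, was the third member without overlap. The share of all genes with every male WT below every female WT was 4.14% (8.16% without overlap in either direction). In WT, 0 of 10 members passed the adjusted threshold with edgeR (0.250% of 15229 genes did). DESeq2 called 3, H2-Aa, H2-Ab1 and H2-Eb1, all lower in males, where it called 1.64% of genes. The edgeR log2 differences (male minus female) were -0.34 ± 0.08 for H2-Ab1 (adjusted p = 0.0985), -0.30 ± 0.07 for H2-Aa (adjusted p = 0.104) and -0.30 ± 0.07 for H2-Eb1 (adjusted p = 0.129). At an unadjusted p below 0.05 there were 6 members, with H2-DMa (-0.28 ± 0.08), H2-DMb1 (-0.21 ± 0.08) and Cd74 (-0.17 ± 0.08) beside the 3 chains, where 13.9% of genes passed. That count was 0 with all 16 libraries fitted and 4 without the libraries highest in B cell markers, which moved the median from -0.22 to -0.17. The 10 members had a median of -0.22, against -0.01 over all genes.

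In LKO, H2-Aa was at 960.04, 935, 384 and 897 CPM in males and at 1343, 976, 1331 and 1189 CPM in females. All males were again below all females for H2-Aa, H2-Ab1, H2-Eb1 and H2-DMb2, a pattern that 6.43% of genes showed (12.9% in either direction). Of the 10 members, 0 passed the adjusted threshold with edgeR (0.0984% of 15250 genes did). DESeq2 called H2-Eb1 and H2-DMb2, where it called 6.85% of genes. At an unadjusted p below 0.05 there were 3 members, H2-Ab1, H2-Eb1 and H2-DMb2, where 22.6% of genes passed. That count was 6 without male LKO replicate 3, 1 without female LKO replicate 1, 3 or 4, and 0 without the 4 libraries highest in B cell markers. The log2 differences were -0.62 ± 0.24 for H2-Ab1 (adjusted p = 0.191), -0.61 ± 0.30 for H2-Aa (adjusted p = 0.281) and -0.58 ± 0.23 for H2-Eb1 (adjusted p = 0.192). Without male LKO replicate 3 they were -0.43 ± 0.11, -0.38 ± 0.10 and -0.40 ± 0.10, with an adjusted p of 0.162 for each, and the members' median moved from -0.48 to -0.29.

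A fit of sex over both genotypes was added after these values had been seen, so its calls are no independent support. H2-Ab1 (-0.47 ± 0.13, adjusted p = 0.0313) and H2-Eb1 (-0.43 ± 0.12, adjusted p = 0.0343) were lower in males. These 2 of 10 members stand against 11.0% of 15598 genes called in either direction and 5.44% called lower in males, and 6 members against 29.3% of genes had an unadjusted p below 0.05. The calls of all genes split into 875 higher and 848 lower in males, and into 424 and 1197 with upper-quartile scaling, which shifted the median of all genes to -0.04 and called 3 members. Without male LKO replicate 3, 5 members were called lower in males: H2-Aa (-0.33 ± 0.06), H2-Ab1 (-0.37 ± 0.07), H2-Eb1 (-0.34 ± 0.06), H2-DMa (-0.28 ± 0.07) and Cd74 (-0.22 ± 0.06), where 5.94% of genes were called and 2.84% lower in males. DESeq2 called 6 members with all libraries, all lower in males, where it called 15.5% of genes and 7.53% lower in males. Without the 4 libraries highest in B cell markers, the call of both chains was lost (adjusted p = 0.102 for H2-Ab1 and 0.107 for H2-Eb1), with differences of -0.50 and -0.46. The call was also lost without male WT replicate 1 or 4, female WT replicate 2, or female LKO replicate 1 or 3 (adjusted p between 0.0522 and 0.0692 for either gene). With the replicate number as a block it was lost too (adjusted p = 0.0575 and 0.0608), as with the title number as covariate (0.152 and 0.168) and with sets of neighbouring title numbers as a factor (0.343 and 0.338; differences of -0.34 and -0.31). The first of those sets held females only and the last 2 males only, so their part in the sex difference cannot be told apart from sex there. Ifi30 (0.05 ± 0.04) and Ctss (-0.04 ± 0.05) were near 0, and Ciita was at -0.30 ± 0.17 (adjusted p = 0.264).

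The order of the groups by mean was the same for 6 members, Cd74, H2-Aa, H2-Ab1, H2-Eb1, H2-DMa and H2-DMb1: female LKO, female WT, male WT, male LKO. Mean CPM of H2-Ab1 in this order was 1019.7 ± 158, 951 ± 8.92, 755 ± 83.1 and 666 ± 186 (SD, n = 4). Within each sex the genotypes overlapped for every one of these genes. The genes move together, so their orders are not separate results. The order of the male groups rested on male LKO replicate 3. Without it the male LKO mean was above male WT for Cd74 (2572 against 2494 CPM), H2-Ab1 (758 against 755) and H2-Eb1 (559 against 547). The same held for H2-DMa (102.4 against 101.2) and H2-DMb1 (105.4 against 105.2), while H2-Aa stayed below (931 against 939). Between female WT and male WT only the 3 classical chains did not overlap. For Ctss the group means ran from 234 ± 10.7 CPM in male LKO to 244 ± 20.0 CPM in female WT, and for Ifi30 from 100.6 ± 3.69 CPM in female WT to 109 ± 7.10 CPM in female LKO, so neighbouring groups of these genes lay within their spread.

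Beside the 10 genes, 14 lists of 119 further genes of the pathway and of cell types were examined. For genotype, 1 list gene was called: Cxcl9, a chemokine that interferon-gamma induces, rose in male LKO. It was at 16.1, 17.1, 20.3 and 17.97 CPM in male WT and at 29.3, 24.4, 30.5 and 29.5 CPM in male LKO, without overlap. Its log2 fold change was 0.68 ± 0.10 (adjusted p = 0.0106), and it was called under 16 of 19 alternatives. The call was lost without male WT replicate 1 (adjusted p = 0.0766), with the title number as covariate (adjusted p = 1.00) and with all 16 libraries fitted (adjusted p = 0.863), at log2 fold changes of 0.63, 0.64 and 0.67. In males every WT title number was below every LKO title number. The part of title order in the Cxcl9 difference therefore cannot be told apart from genotype. Male LKO replicate 3, low in class II genes, had the highest Cxcl9 of its group. In females Cxcl9 was at -0.04 ± 0.36, and the difference between the sexes had an adjusted p of 0.845.

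No gene of the other lists was called for genotype with edgeR in either sex, in both sexes or in the interaction, and none for sex within a genotype. DESeq2 called 3 of 113 list genes in males, 2 of 115 in females, 2 of 118 in both sexes and 0 of 118 in the interaction. Over all genes it called 0.415%, 1.01%, 1.44% and 0%. For sex DESeq2 called 6 of 114 list genes in WT and 22 of 115 in LKO, where it called 1.64% and 6.85% of all genes. Of the 22, 19 were lower in males, with B cell markers among them. Medians of the lists cover the genes with enough counts to be tested. Of the 12 genes of class II transcription (Rfx, Nfy and Creb1, with Irf4, Irf8, Spi1, Pax5 and Prdm1), 11 were tested in each sex. Their median log2 fold change was 0.06 in males and 0.04 in females. The 9 genes of endosomal processing, cathepsins and Lgmn among them, were at -0.04 and 0.03, and the 13 class I genes at -0.02 and 0.05. The 22 interferon-gamma genes (21 tested in males) were at 0.06 and 0.00. Markers of dendritic cells were at 0.24 and 0.41, of macrophages at 0.01 and 0.08, of T cells at -0.19 and -0.01, of enterocytes at 0.07 and 0.12 and of the ileum at 0.28 and -0.04. The B cell markers were at -0.97 in males (7 of 10 tested) and 2.21 in females (8 tested), with the uneven libraries described above. The 9 other genes linked to class II (8 tested), which include H2-Oa, H2-Ob, Cd4 and Lag3, were at -0.23 and 0.69. Costimulatory genes were at 0.03 and 0.35, plasma cell markers at -0.03 and 0.05, and genes of the follicle-associated epithelium (3 of 4 tested) at 0.00 and 0.59.

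For sex over both genotypes, 16 of the 118 list genes tested were called, 6 higher and 10 lower in males, beside 11.0% of all genes called and 5.44% called lower, so the share lay near the background. The 10 lower in males included the class I genes H2-K1 (-0.23 ± 0.07) and Tap2 (-0.27 ± 0.08), the costimulatory ligand Cd86 (-0.49 ± 0.12), the dendritic cell receptor gene Flt3 (-0.63 ± 0.17), Cd4 (-0.40 ± 0.12), Cst3 (-0.26 ± 0.06), C1qb (-0.20 ± 0.06), Tnfaip2 (-0.36 ± 0.11), Tnfrsf17 (-0.45 ± 0.12) and Ubd (-1.36 ± 0.34). The 6 higher in males were Calr, Pdia3, Prdm1 and the enterocyte genes Krt20 (0.32 ± 0.06), Vil1 (0.16 ± 0.05) and Epcam (0.14 ± 0.04). Summed dendritic cell markers spanned 36.0 to 48.4 CPM in the male libraries against 39.8 to 70.1 CPM in the female ones, and summed enterocyte markers spanned 11278 to 13201 CPM against 9213 to 12195 CPM. Their part in the sex difference of the class II chains was not tested.

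The members were also set against the interferon-gamma list across libraries, in 20 relations with the B cell list included. Over 16 libraries Ctss had r = 0.776 with the mean log2 CPM of the 22 genes (rho = 0.656, permutation p = 0.00037, adjusted p = 0.0074). Dropping the 2 libraries most distant from the list's median gave r = 0.638. Within the 8 females r was 0.903 and within the 8 males 0.0451, so the relation did not hold within males. By rho, 7 members passed an adjusted p of 0.05 with this list, and 5 with RLE scaling, which lost H2-Ab1 and H2-Eb1 (adjusted p = 0.0525 for both); how many of all genes would pass was not computed. H2-DMa had r = 0.617 (rho = 0.756, permutation p = 0.00874, adjusted p = 0.0874; 0.461 without the 2 farthest), with 0.942 in females and 0.0493 in males. For H2-DMb1 r was 0.893 in females and 0.0524 in males, and for Cd74 0.554 and 0.187. Leaving out male LKO replicate 3, a choice made after seeing the data, raised r for H2-DMa to 0.845 and for Cd74 from 0.454 to 0.670. The B cell markers split the libraries into a set of 4 and a set of 12, so no r over all 16 is given. Within the 12, no member had an adjusted p below 0.05 for r, from -0.204 for Ifi30 to 0.451 for H2-DMb2, while the rho of H2-DMa was 0.72 (adjusted p = 0.0307). Its r was -0.362 within the 7 males and 0.747 within the 5 females of the 12. The 7 males include male LKO replicate 3, where H2-DMa was low at 56.2 CPM. No r within males was computed without that library. Over both sexes of the 12 without it, r was 0.725 for H2-Aa, 0.752 for Cd74 and 0.759 for H2-Ab1. It was 0.769 for H2-Eb1, 0.776 for H2-DMa and 0.64 for H2-DMb1. For H2-DMb2 it was 0.46, and 0.156 without the 2 libraries farthest from the median. Within the 7 males, replicate 3 included, r ran from -0.434 (H2-Aa) to -0.307 (Cd74) for those genes other than H2-DMb2.

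The genes most like Cd74 across the 16 libraries, by Pearson correlation of log2 CPM, were Mir5107 (r = 0.961), Slpi (0.899), H2-K1 (0.887), Smarcd3 (0.884) and Smpd1 (0.866). Mir5107 lies inside the Cd74 interval, so its reads cannot be told from those of Cd74 messenger RNA. All 5 had their lowest level in male LKO replicate 3: Slpi, a secreted protease inhibitor, was at 4.52 CPM there and at up to 25.1 CPM elsewhere. The genes most like Ciita were Snx30 (0.853), Tnfsf8 (0.845), Scrn1 (0.834), Tmem26 (0.834) and the class I gene H2-Q5 (0.832), again each lowest in that library. These genes were chosen by their correlation, and the values carry no test.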

How the data were processed

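Per the labels and the study's methods, the authors made stranded mRNA libraries from terminal ileum and aligned single-end reads to mm10 using STAR 2.5.2, dropping reads with several positions. They deposited raw counts over the exons of each gene from HOMER 4.10. The strand option of the counting and the annotation version are not given in the sources used here. Groups and replicate numbers came from the sample titles. The numbers were not treated as pairs of animals in the main fits (see the closing limits). The p-values of the fits set differences against the spread between these samples. The permutations of the correlations ran over libraries of both sexes and both genotypes.

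All genes were tested with edgeR 4.0.16 (quasi-likelihood, robust, filterByExpr by group, TMM scaling) under R 4.3.3, with Benjamini-Hochberg adjustment and a threshold of 0.05. DESeq2 1.42.0 was an alternative. The SE is the size of the log2 fold change divided by the square root of F. CPM values are TMM-scaled, log2 CPM adds a prior count of 2, and RPKM uses the length in the table. Comparisons of 2 groups used 8 libraries and the others all 16. Correlations used 100000 two-sided permutations. Scripts were tested on simulated data. The 10 genes and the lists were chosen with earlier results of these data known. From each list, called genes and at most the 2 with the smallest p could be named. No libraries agreed within sampling noise, and 3 counts, the limit that a count of 0 allows, equalled at most 0.191 CPM.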

Additional observations from a re-analysis of the deposited data

Results flagged for a closer look

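A library is listed here where its gap to the nearest of the other 3 animals, relative to the range of the group, exceeded Dixon's 95% critical value, which chance passes in about 1 in 20 groups. Of 40 combinations of a gene and a group, 9 did. In male LKO, replicate 3 lay below the other 3 animals for 6 genes: Cd74 (1264 CPM, against 2495 to 2647), H2-Aa (384 against 897 to 960.04), H2-Ab1 (388 against 734 to 774), H2-Eb1 (296 against 546 to 566), H2-DMa (56.2 against 100.4 to 104) and H2-DMb1 (49.3 against 103 to 108). These 6 values come from 1 animal and from genes that move together.

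In female LKO, replicate 3 was high for Ciita (85.0 CPM, against 55.0 to 59.6) and replicate 4 was low for Ifi30 (98.8 CPM, against 112 to 114). In male WT, replicate 3 was high for Ifi30 (119.6 CPM, against 104 to 106).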

How the results depend on the processing

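For genotype, no member was called under any alternative run: 19 in males, 20 in females, 28 in both sexes and 27 in the interaction. The members' median log2 fold change without 1 library ran from -0.25 to 0.01 in males, 0.03 to 0.17 in females, -0.06 to 0.05 in both sexes and -0.38 to -0.09 in the interaction. For sex, DESeq2 called 3 members in WT and 2 in LKO where edgeR called 0, and without 1 library the medians ran from -0.28 to -0.17 and from -0.58 to -0.29. The fit of sex over both genotypes, added after seeing the data, called 2 members. It called 6 with DESeq2, 4 with the non-robust fit and 0 with the replicate block, the title number, the sets of title numbers (0) or without the 4 libraries highest in B cell markers (0). Without 1 library it called from 0 to 5, with medians from -0.40 to -0.26; the cause was not tested. Same-numbered libraries correlated at -0.104 to 0.26. Differently numbered libraries were not compared, so these values cannot show whether the replicate numbers pair animals. With the replicate block 0 members were called in every comparison. Of 1610 member values under alternatives, 80 changed sign, none with a call. Counts of all genes called differed between edgeR and DESeq2: 8 and 63 for genotype in males, 6 and 154 in females, 42 and 224 in both sexes, 38 and 250 for sex in WT and 15 and 1044 in LKO. For sex over both genotypes the count ran from 90 to 2415 around 1723. With 4 animals a group the SE of Cd74 in males was 0.23 on the log2 scale, which limits what change could be seen.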

Other observations

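Female LKO replicate 2 was the lowest of its group for Cd74, Ciita, H2-Aa, H2-Ab1, H2-Eb1, H2-DMa and H2-DMb1, with 3 members below 0.75 of the mean of the other animals. It was also the lowest of its group for Ubd, at 24.2 CPM, and for Cxcl9, at 13.9 CPM, and it was among the libraries rich in B cell markers, at 236 CPM.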
